A study of Mus musculus with 7 samples.

Results

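The small leucine-rich proteoglycans are a family of secreted proteins of connective tissue, and 10 of them were chosen by name for this description: decorin (Dcn), biglycan (Bgn), asporin (Aspn), ECM2 (Ecm2), lumican (Lum), fibromodulin (Fmod), PRELP (Prelp), osteomodulin (Omd), osteoglycin (Ogn) and podocan (Podn). The table of fibroblast counts held 12771 genes, 9 of the 10 members among them, and all 9 passed the minimum mean normalized count of 5. Expression of Omd was not analysed here, and only its position and promoter window were used. The RNA came from cancer-associated fibroblasts (CAFs) of pancreatic tumors in male C57BL/6 mice (C57BL/6 J in the study's methods), 8 weeks old at injection, whose tumors were collected 2 to 3 weeks later. All tumors grew in the pancreas from cells of the mouse pancreatic cancer line KPC that had been transduced with lentivirus carrying a short hairpin RNA. The hairpin targeted Brca2 in the shBrca2 group (4 libraries, replicates 1, 2, 3 and 4) and was a non-targeting control in the shControl group (3 libraries, replicates 1, 2 and 4). The hairpin was in the injected cancer cells, a single line, and not in the host fibroblasts that were sequenced. Fibroblasts were sorted as live cells that lacked CD45, CD31 and EpCAM and carried podoplanin, and their poly(A) RNA was counted at the 3' end. The study gives as many mice as there are libraries in each group, so p-values measure the spread between mice, together with any technical spread between libraries.

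Members of this family share a core of leucine-rich repeats that folds into a curved solenoid, and many carry chondroitin, dermatan or keratan sulfate chains. They sit on collagen fibrils, where they set the spacing and diameter of the fibrils, and they bind growth factors and cell surface receptors. In connective tissue and in the stroma of pancreatic tumors they are made mainly by fibroblasts.

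Total counts ran from 1898679 to 5990579 per library, and values below are counts divided by the size factors of DESeq2 (normalized counts). Called genes had a Benjamini-Hochberg adjusted p under 0.1 in the likelihood ratio test of DESeq2, a log2 fold change beyond 0.5 in either direction and a mean above 5 normalized counts. Fold changes are shBrca2 over shControl. Pdpn, the gene of the sorting marker podoplanin, had 641 normalized counts in shControl CAFs and 539 in shBrca2 CAFs, with a log2 fold change of -0.25 (SE 0.15, adjusted p = 0.42 by DESeq2). Of 12 fibroblast identity markers 2 were called lower and 0 higher by DESeq2, and 3 had an unadjusted p under 0.05 and 2 were called by edgeR. Over all genes tested DESeq2 called 5.27% lower and 3.77% higher. The mean of Brca2 was 12.9 ± 4.18 normalized counts (SD) over the 3 shControl libraries and 12.2 ± 2.56 (SD) over the 4 shBrca2 libraries. shControl replicate 2 stood apart from the other shControl libraries in several members.

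7 of the 9 members were called lower in shBrca2 CAFs, namely Dcn, Lum, Fmod, Ogn, Prelp, Podn and Ecm2. Among all 12768 genes tested, 5.27% were called lower, 3.77% were called higher and 9.04% were called in either direction. No member was called higher by DESeq2 or by edgeR, and none had an unadjusted p under 0.05 with a positive fold change. Bgn and Aspn were not called. The fold changes of all 9 members were negative, and their median was -0.93, where the median of all listed genes was 0.008. The called members fell by between 1.65-fold (Fmod) and 4.27-fold (Ogn) with all 7 libraries. Without shControl replicate 1 the log2 fold change of Ogn was -1.17, smaller in size than those of Ecm2 (-1.35) and Prelp (-1.23). The shBrca2 libraries lay below every shControl library in 5 members (Fmod, Ogn, Prelp, Podn and Ecm2), and 9.29% of listed genes were separated in that direction and 17.1% in either. In bulk samples such as these, fewer cells of a type and less RNA per cell cannot be told apart.

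**Figure D1:**
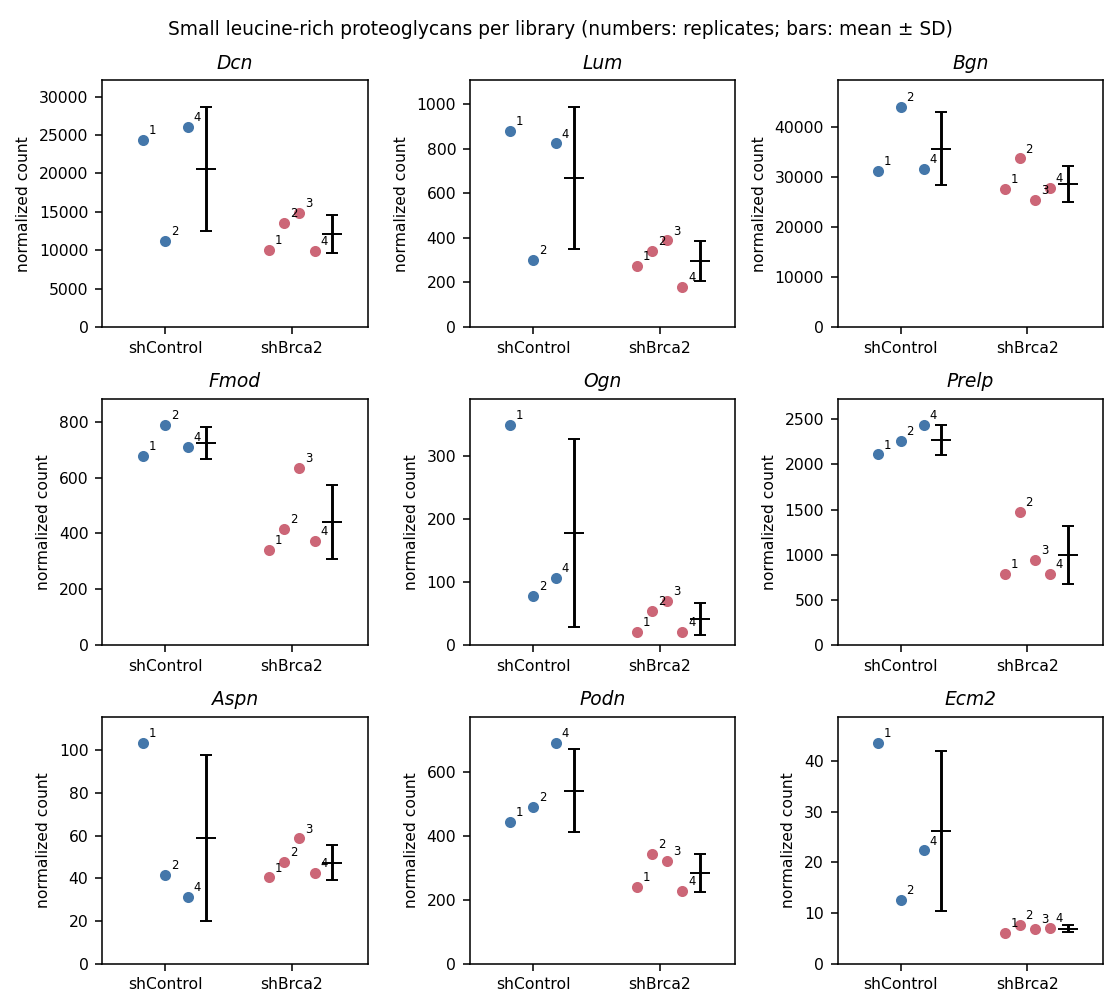
Normalized counts of the 9 members in each library, with 1 panel per gene, the replicate number beside each point and black bars for the group mean ± SD. The groups are apart in Fmod, Ogn, Prelp, Podn and Ecm2, and in Dcn and Lum shControl replicate 2 (11244 and 301 normalized counts) lies among the shBrca2 libraries.

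3 members of the family in the table, Ecm2, Aspn and Ogn, lie next to each other on chromosome 13 together with Omd, all on the plus strand. On GRCm38.p6 (the assembly of mm10, which the submitters named) RefSeq places Ecm2 at chr13:49504810-49532789, Aspn at chr13:49544443-49567565, Omd at chr13:49582462-49592612 and Ogn at chr13:49608015-49624501. The gaps between neighbours are 11.7, 14.9 and 15.4 kb. The whole block lies inside the span of Cenpp, a centromere protein gene on the opposite strand. The 250 bases before the start of each of the 3 measured genes are shown because Ecm2 and Ogn were called lower and Aspn, between them, was not. They are RefSeq sequence of GRCm38.p6, plus strand, 5' to 3', and capitals mark every match on either strand to any of 8 searched motifs.
Ecm2, chr13:49504560-49504809: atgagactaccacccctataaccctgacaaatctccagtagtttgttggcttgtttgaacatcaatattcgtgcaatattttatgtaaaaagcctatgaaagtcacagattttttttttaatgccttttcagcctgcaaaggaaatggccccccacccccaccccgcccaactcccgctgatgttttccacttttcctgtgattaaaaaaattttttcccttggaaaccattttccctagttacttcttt
Aspn, chr13:49544193-49544442: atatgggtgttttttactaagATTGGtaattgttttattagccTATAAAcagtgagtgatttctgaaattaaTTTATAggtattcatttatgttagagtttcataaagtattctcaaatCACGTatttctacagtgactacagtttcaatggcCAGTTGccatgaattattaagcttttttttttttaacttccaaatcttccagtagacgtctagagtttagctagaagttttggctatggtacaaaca
Ogn, chr13:49607765-49608014: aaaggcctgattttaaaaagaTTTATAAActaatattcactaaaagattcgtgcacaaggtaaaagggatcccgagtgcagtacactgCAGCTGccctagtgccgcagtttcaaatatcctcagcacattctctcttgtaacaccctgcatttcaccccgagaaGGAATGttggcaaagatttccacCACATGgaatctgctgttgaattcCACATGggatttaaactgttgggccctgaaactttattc
The motifs were the TATA box (TATAAA), the CCAAT box (CCAAT), the hypoxia response core (ACGTG), the heat shock element core (GAANNTTC), the AP-1 site (TGANTCA), the TEAD site (GGAATG), the E-box (CANNTG) and the SMAD box (GTCTAGAC). The Ecm2 window held no match to any of them. The Aspn window held 2 matches to the TATA box and 1 each to the CCAAT box, the hypoxia response core and the E-box. The Ogn window held 2 TATA box matches, which overlap each other, 3 E-box matches and 1 match to the TEAD site. Windows were found for Prelp, Fmod, Ecm2, Aspn, Omd, Ogn, Bgn and, with 2 starts, Podn. Over these 9 windows of 8 genes, the E-box was in 6 (66.2% of 32851 mouse promoter windows of this length), the TATA box in 2 (12.4%), the CCAAT box in 2 (33.8%), the hypoxia response core in 1 (16.6%) and the TEAD site in 1 (12.6%). The heat shock element core (6.7%), the AP-1 site (6.7%) and the SMAD box (0.2%) were in none of the 9. These letter matches are a description of the windows and not of bound sites. GC content was 40.0% for Ecm2, 30.0% for Aspn and 42.0% for Ogn, against a median of 52.4% over all windows, and the highest among the 9 windows was 78.0%.

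Decorin is the prototype of the family, a collagen-binding proteoglycan with a chondroitin or dermatan sulfate chain that also binds TGFβ. Dcn (GRCm38.p6 chr10:97479500-97518163, plus strand) was counted at 24418, 11244 and 26065 (normalized) in replicates 1, 2 and 4 of shControl, and at 10014, 13531, 14870 and 9949 in replicates 1 to 4 of shBrca2. A pair of shControl libraries lay far above all shBrca2 libraries, and shControl replicate 2 lay within their range, so the groups overlapped. The means were 20576 ± 8123 (SD, n = 3) and 12091 ± 2496 (SD, n = 4), and Dcn fell by 0.77 on the log2 scale (SE 0.28, adjusted p = 0.069 by DESeq2). Leaving out shControl replicates 1, 2 and 4 in turn gave log2 fold changes of -0.63, -1.06 and -0.56. The adjusted p was 0.29 without shControl replicate 1, 0.35 without replicate 4 of that group, 0.23 without shBrca2 replicate 1, 0.22 without shBrca2 replicate 4, and 0.12 with edgeR.

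Biglycan, the closest relative of decorin, binds collagen as well, and in soluble form it is a ligand of Toll-like receptors. Bgn (chrX:73483601-73495936, plus strand) had 31204, 44038 and 31673 normalized counts in the shControl libraries, in the order above, and 27577, 33695, 25343 and 27813 in the shBrca2 libraries. Here shControl replicate 2 was the highest of all 7 libraries, and the groups overlapped at shBrca2 replicate 2. The log2 fold change was -0.32 (SE 0.18, adjusted p = 0.36 by DESeq2), and it stayed between -0.41 and -0.14 when single libraries were left out.

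Asporin, named for a run of aspartate residues, binds collagen and TGFβ and carries no glycosaminoglycan chain. Aspn had 103, 41.7 and 31.1 normalized counts in shControl CAFs and 40.4, 47.8, 58.7 and 42.7 in shBrca2 CAFs. shControl replicate 1 was the highest library and shControl replicate 4 the lowest, so the shControl libraries spanned the whole range of the shBrca2 libraries. The log2 fold change was -0.33 (SE 0.39, adjusted p = 0.76 by DESeq2), and without shControl replicate 1 it was 0.37.

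ECM2 is a matrix protein with the same repeats and is grouped with decorin and asporin by sequence. Ecm2 was the least counted member, at 43.6, 12.7 and 22.4 normalized counts in shControl CAFs and 6.02, 7.58, 6.91 and 7.11 in shBrca2 CAFs. The lowest shControl library was above the highest shBrca2 library. Ecm2 fell by 1.94 on the log2 scale (3.84-fold, SE 0.53, adjusted p = 0.0054 by DESeq2). Its raw counts were only 4 to 51 per library, and without shControl replicate 1 the log2 fold change was -1.35 with an adjusted p of 0.29.

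Lumican and fibromodulin are keratan sulfate proteoglycans that compete for sites on collagen I fibrils. Lum (chr10:97565501-97572703, plus strand, 47.3 kb after Dcn) had 882, 301 and 824 normalized counts in shControl CAFs and 275, 341, 389 and 179 in shBrca2 CAFs. As with Dcn, shControl replicate 2 lay among the shBrca2 libraries and the other shControl libraries lay above them. Lum fell by 1.18 on the log2 scale (2.27-fold, SE 0.35, adjusted p = 0.015 by DESeq2), and without shControl replicate 2 the log2 fold change was -1.53. Without shControl replicate 1 it was -0.94 with an adjusted p of 0.11.

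Fmod (chr1:134037254-134048280, plus strand) had 677, 788 and 710 normalized counts in shControl CAFs and 342, 416, 636 and 372 in shBrca2 CAFs. The groups were apart, with shBrca2 replicate 3 closest to the shControl libraries. The means were 725 ± 57.3 (SD, n = 3) and 441 ± 133 (SD, n = 4), and Fmod fell by 0.72 on the log2 scale (SE 0.22, adjusted p = 0.023 by DESeq2). Without shBrca2 replicate 1 the adjusted p was 0.16, and without shBrca2 replicate 4 it was 0.14.

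PRELP, an arginine- and proline-rich member, anchors basement membranes to the connective tissue beneath through heparan sulfate and collagen. Prelp (chr1:133910304-133930102, minus strand, 107.2 kb from Fmod) had 2108, 2256 and 2434 normalized counts in shControl CAFs and 790, 1469, 943 and 785 in shBrca2 CAFs. All shControl libraries were high and close to each other, and shBrca2 replicate 2 was the highest of the low group. The means were 2266 ± 163 (SD, n = 3) and 997 ± 324 (SD, n = 4). Prelp fell by 1.18 on the log2 scale (2.27-fold, SE 0.23, adjusted p = 3.5e-05 by DESeq2) and was called in all 7 fits that left out 1 library, with log2 fold changes of -1.44 to -1.08.

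Osteoglycin, also called mimecan, is a keratan sulfate proteoglycan of bone, cornea and vessel walls and is widely used as a fibroblast marker. Ogn had 349, 78.4 and 106 normalized counts in shControl CAFs and 20.7, 54.8, 70.8 and 21.3 in shBrca2 CAFs. The groups were apart, but shControl replicate 2 and shBrca2 replicate 3 were close, and the shControl mean of 178 ± 149 (SD, n = 3) rested largely on replicate 1. The shBrca2 mean was 41.9 ± 25.0 (SD, n = 4). Ogn fell by 2.09 on the log2 scale (SE 0.74, adjusted p = 0.064 by DESeq2). Without shControl replicate 1 the log2 fold change was -1.17 with an adjusted p of 0.11. The adjusted p was 0.27, 0.13 and 0.25 without shBrca2 replicates 1, 2 and 4 in turn.

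Podocan binds collagen I and restrains the growth of smooth muscle cells. Podn (chr4:108014793-108031954, minus strand) had 445, 491 and 691 normalized counts in shControl CAFs and 240, 344, 323 and 229 in shBrca2 CAFs. The groups were apart, and no single library stood between them. The means were 542 ± 131 (SD, n = 3) and 284 ± 58.2 (SD, n = 4), and Podn fell by 0.93 on the log2 scale (1.91-fold, SE 0.23, adjusted p = 0.0016 by DESeq2). With Prelp it was the other member called in each of the 7 fits that left out 1 library, at log2 fold changes of -1.06 to -0.72.

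**Figure D2:**
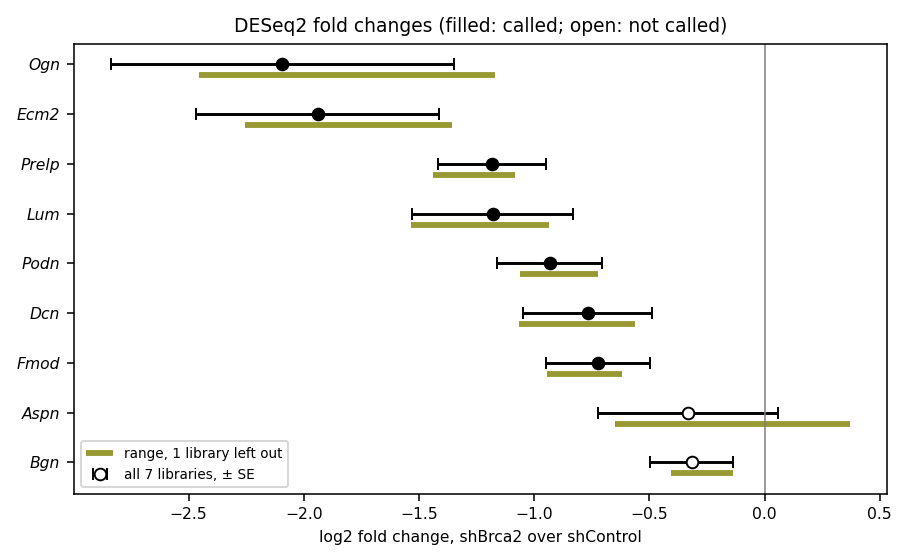
Log2 fold change of each member (horizontal axis, shBrca2 over shControl) with all 7 libraries ± SE, filled where called and open where not, and as an olive bar the range over the fits that left out 1 library. Prelp and Podn have narrow ranges (-1.44 to -1.08 and -1.06 to -0.72), that of Ogn runs from -2.46 to -1.17, and that of Aspn crosses 0.

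The number of members called lower was 3 without shControl replicate 1 (Fmod, Podn and Prelp), 4 without shBrca2 replicate 1 and 4 without shBrca2 replicate 4 (Lum, Ecm2, Podn and Prelp in both). It was 6 or 7 when any other library was left out. The counts of all genes called moved too, from 673 lower to 366, 354 and 372 in these 3 fits and to 418 without shControl replicate 4. The spread within a group differed between members. In shControl CAFs the coefficient of variation was 7.2% for Prelp and 7.9% for Fmod, 39.5% for Dcn, 47.8% for Lum and 83.6% for Ogn. In shBrca2 CAFs it was 32.5% for Prelp, 30.2% for Fmod, 20.6% for Dcn, 30.7% for Lum and 59.7% for Ogn.

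The members did not share a single profile over the libraries. The distance between a pair of members was taken as the root mean square difference of log2(normalized count + 1), centred per gene over the 7 libraries, and is a description without a test. The shortest distances were between Prelp and Podn (0.247), Fmod and Podn (0.283), and the chromosome 10 neighbours Dcn and Lum (0.287). The longest was between Bgn and Ogn (1.23). Dcn and Lum were both low in shControl replicate 2 where Bgn was high.

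**Figure D3:**
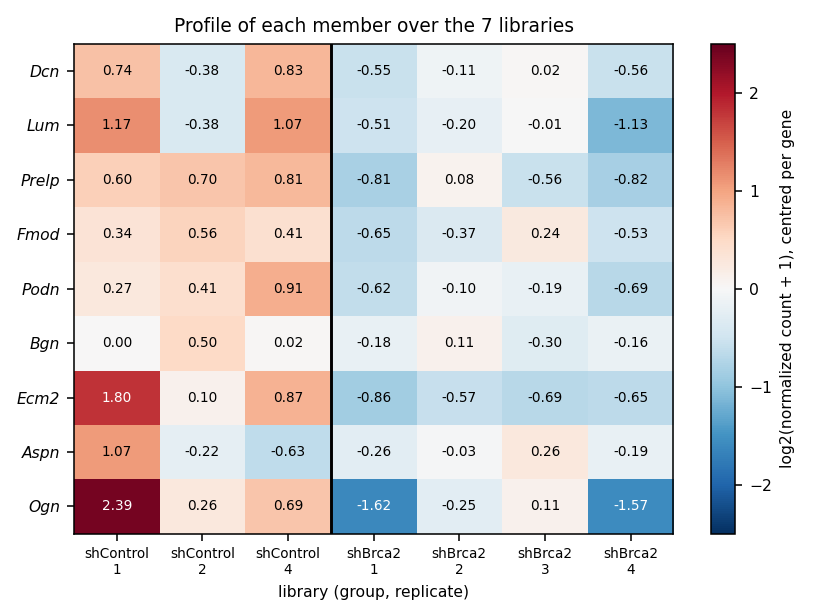
Log2(normalized count + 1) of each member in each library, centred per gene (red above and blue below the gene's mean, with the value in each cell), shControl to the left of the black line. Ogn has the widest range, and in the shControl replicate 2 column Dcn and Lum are low while Bgn is high.

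For Ogn, the 5 genes with the closest profiles among 6734 genes with a mean above 50 normalized counts were Hmcn2, a hemicentin of the matrix, at a distance of 0.436, Cdkn1c, the cell cycle inhibitor p57, at 0.442, Pamr1, a secreted protein with a peptidase domain, at 0.455, Pcsk6, a proprotein convertase, at 0.515, and Clec3b, tetranectin, at 0.538. Among family members above that mean, the closest was Lum, at rank 55 with a distance of 0.707. Ecm2, which lay under that mean and was not ranked, was closer to Ogn, at 0.606. Clec3b is also one of the adventitial fibroblast markers used further on.

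Ratios between members within a library do not depend on the scaling of the libraries, and 4 were compared as log2 of raw counts plus 1. Bgn over Dcn, the 2 collagen-binding relatives, had a mean of 0.87 ± 0.95 (SD, n = 3) under shControl and 1.26 ± 0.33 (SD, n = 4) under shBrca2, a difference of 0.39 (p = 0.57, adjusted 0.57, two-sided exact permutation test). Ogn over Dcn was -7.07 ± 0.90 and -8.32 ± 0.60, a difference of -1.25 (p = 0.11, adjusted 0.23, same exact permutation test, n = 3 and 4). Lum over Dcn was -5.0 ± 0.21 and -5.38 ± 0.28, a difference of -0.39 (p = 0.11, adjusted 0.23, exact permutation test, n = 3 and 4). Fmod over Lum was 0.26 ± 0.97 and 0.59 ± 0.36, a difference of 0.33 (p = 0.57, adjusted 0.57, exact permutation test, n = 3 and 4). The two-sided p was the smaller tail doubled. With 35 ways to divide the libraries the smallest p so defined is 0.057, so it cannot reach 0.05. Without shControl replicate 2 the difference in Bgn over Dcn was 0.94 and that in Fmod over Lum was 0.89, and without shControl replicate 1 they were 0.13 and 0.0046. Without shControl replicate 4 they were 0.096 and 0.088. The difference in Ogn over Dcn ran from -1.68 (shControl replicate 4 left out) to -0.78 (replicate 1 left out). shControl replicate 2 had the highest Bgn over Dcn and the highest Fmod over Lum of all libraries.

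**Figure D4:**
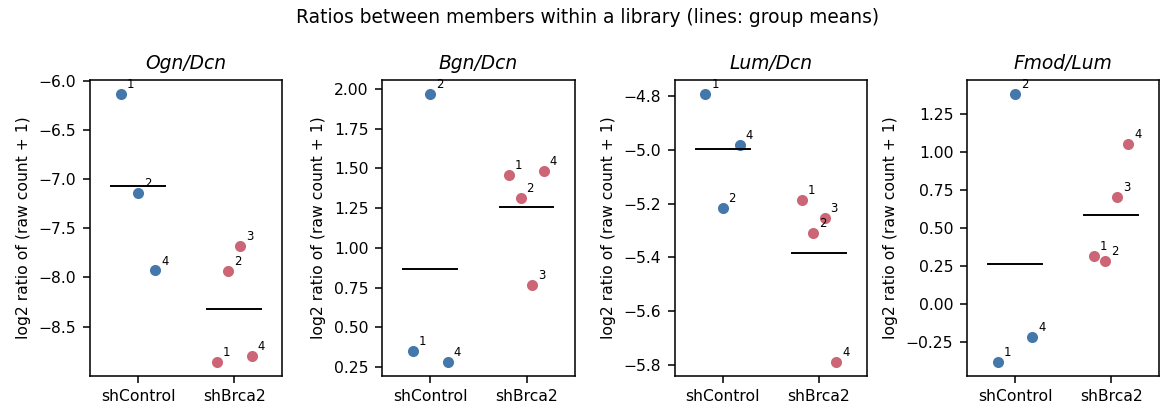
Log2 ratio of raw counts plus 1 between pairs of members in each library, with the replicate number beside each point and a line for the group mean. The groups overlap in all 4 ratios, and shControl replicate 2 lies far above the other shControl libraries in Bgn over Dcn and in Fmod over Lum.

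The normalized counts of the 9 members summed to 60229, 59251 and 62556 in shControl CAFs and to 39304, 49907, 42640 and 39397 in shBrca2 CAFs. The sums of the shControl libraries lay close together although Dcn and Bgn differed between them, since shControl replicate 2 had less Dcn and more Bgn. The difference of the summed values was -0.51 on the log2 scale, and it was -0.39 when each library was scaled by its total count instead. Most of each sum was Bgn (50.6% to 74.3% of the members' raw counts) and Dcn (19.0% to 41.7%).

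Genes that act on or with the family were taken from lists. Among 5 further leucine-rich proteoglycans of the table, 1 was called higher and 1 lower, and the median fold change (log2) was 0.11. The share called was 40%, against 9.04% of all genes tested. Podnl1, the podocan-like relative of Podn, had 17.9, 25.3 and 7.78 normalized counts in shControl CAFs and 39.6, 22.1, 62.2 and 73.2 in shBrca2 CAFs, and rose by 1.53 on the log2 scale (SE 0.48, adjusted p = 0.030 by DESeq2) while Podn fell. The 2 groups of Podnl1 overlapped at shControl replicate 2, and 5 of the 7 fits that left out 1 library called it. Chadl, a chondroadherin-like inhibitor of collagen fibril formation, had a mean of 41.5 in shControl CAFs and 19.7 in shBrca2 CAFs and fell by 1.05 (adjusted p = 0.076 by DESeq2), a call that 1 of the 7 fits with a library left out also made.

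Of the enzymes that build the sugar chains, 4.35% were called for chondroitin and dermatan sulfate and 14.3% for keratan sulfate. The share over all genes tested was 9.04%. In 3 of 7 keratan sulfate genes the shBrca2 libraries lay above every shControl library, and in 0 they lay below. Among all listed genes 7.78% were separated upward. Of 23 genes of chondroitin and dermatan sulfate synthesis 1 was called higher and 0 lower by DESeq2, with a median of -0.06 (3 had an unadjusted p under 0.05 and edgeR called 0). The called gene was Chst11, a chondroitin sulfotransferase, with a log2 fold change of 0.86 and an adjusted p of 0.078, and 3 of 7 fits with a library left out called it. Of 7 genes of keratan sulfate synthesis 1 was called higher and 0 lower by DESeq2, with a median of 0.38 (2 had an unadjusted p under 0.05 and edgeR called 1). It was B3gnt7, which extends keratan sulfate, at means of only 5.0 and 14.6 normalized counts, a log2 fold change of 1.62 and an adjusted p of 0.066, and 2 of the 7 fits called it.

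Of 14 genes that process collagen or cleave these proteoglycans 7 were called lower and 1 higher, with a median of -0.55. The share called was 57.1%, against 9.04% of all genes tested. The procollagen C-proteinase enhancers were both lower. Pcolce2 had 877, 485 and 791 normalized counts in shControl CAFs and 231, 322, 185 and 248 in shBrca2 CAFs, with no overlap, and fell by 1.53 on the log2 scale (adjusted p = 2.6e-07 by DESeq2). Pcolce fell by 0.66 from a mean of 7121 to 4489 (adjusted p = 0.0027 by DESeq2). The stromelysin Mmp3 fell by 1.18 (adjusted p = 7.4e-06), the serine protease Htra1 by 0.87 (adjusted p = 3.7e-05) and the aggrecanase Adamts4 by 0.53 (adjusted p = 0.0070), all by DESeq2. Adamts9 rose by 1.28 (SE 0.27, adjusted p = 1.9e-04 by DESeq2), from a mean of 48.8 to 120 normalized counts. Without a library in turn, Pcolce2, Pcolce, Mmp3, Htra1 and Adamts9 were called in 7 of 7 fits and Adamts4 in 4.

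Of 15 receptors 2 were called higher and 1 lower, with a median of 0.10. The share called was 20%, against 9.04% of all genes tested. Cd44 rose by 0.74 on the log2 scale (adjusted p = 0.0012 by DESeq2). Cd14, the co-receptor through which biglycan acts on Toll-like receptors, rose by 1.21 (adjusted p = 0.034 by DESeq2) from 29.9, 62.0 and 130 normalized counts to 181, 147, 211 and 146. It is a gene of immune cells as well, and 6 of the 7 fits with a library left out called it. Leaving out shControl replicate 4 gave a log2 fold change of 1.92, and leaving out replicate 1 gave 0.81, which was not called (adjusted p = 0.15 by DESeq2). Lrp1, an endocytic receptor for decorin, fell by 0.76 (adjusted p = 0.0023 by DESeq2). Of 11 growth factors 1 was called higher and 1 lower (18.2% called), with a median of 0.21. Tgfb1, a ligand held by decorin and other members, rose by 1.08 (adjusted p = 0.062 by DESeq2), with shControl replicate 2 at 426 and the other shControl libraries at 143 and 135, and 3 of the 7 fits with a library left out called it. Leaving out shControl replicates 1, 2 and 4 in turn gave log2 fold changes of 0.82, 1.83 and 0.80 for Tgfb1. Bmp6 fell by 1.28 (adjusted p = 0.027 by DESeq2), called in 5 of the 7 fits.

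Of 12 collagens that these proteoglycans bind 0 were called higher and 1 lower by DESeq2, with a median of -0.01 (2 had an unadjusted p under 0.05 and edgeR called 1). The share called, 8.33%, was near the 9.04% over all genes tested. The called gene was Col14a1, a collagen that lies on the surface of fibrils and binds decorin. It had 1936, 1259 and 1366 normalized counts in shControl CAFs and 275, 652, 401 and 253 in shBrca2 CAFs and fell by 1.94 on the log2 scale (adjusted p = 1.7e-07 by DESeq2). All shControl libraries lay above all shBrca2 libraries. Col14a1 is also an adventitial marker in the lists used further on, as Lrp1 is a fibroblast marker. Of 20 proteoglycans of other families 2 were called higher and 4 lower (30% called), with a median of -0.24. The syndecan Sdc1 and the lubricin Prg4 rose by 0.99 and 1.03. Sdc3, the glypican Gpc3, the granule proteoglycan Srgn and betaglycan (Tgfbr3) fell by 0.96, 1.26, 1.64 and 0.78. Of these 6 genes Tgfbr3 was called in 5 of the 7 fits that left out 1 library and the others in all 7.

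**Figure D5:**
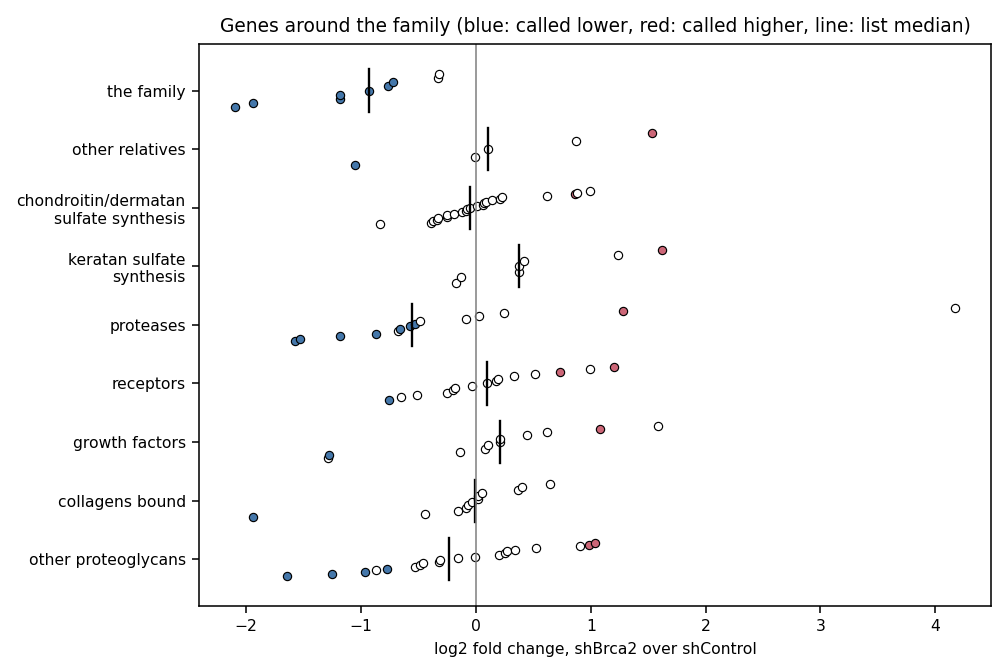
Log2 fold change (horizontal axis, shBrca2 over shControl) of every gene in the family and in the 8 lists around it, with blue points called lower, red points called higher, open points not called and a line at the list median. The family (median -0.93) and the proteases (median -0.55) lie mostly to the left of 0, the collagens centre on -0.01, and the open protease point at 4.17 is Tll1, listed at 0 in all shControl libraries and under the minimum mean, named here for its place in the plot after its value was seen.

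Markers of other cells and of fibroblast states moved between the groups as well. For the counts of calls below, 5.27% of all genes tested were called lower and 3.77% higher by DESeq2. Of 14 adventitial fibroblast markers 12 were called lower and 0 higher by DESeq2, with a median of -1.54 (14 had an unadjusted p under 0.05, all with a negative fold change, and edgeR called 11), and their summed normalized counts were 32326 to 54409 in shControl CAFs and 12638 to 22677 in shBrca2 CAFs. The lowest shControl sum was that of replicate 2, in which Dcn and Lum were low too. Of 14 myofibroblastic markers 1 was called in each direction, with sums of 13709 to 21242 and 14021 to 22913. Mesothelial sums were 1932 to 5619 in shControl CAFs and 4827 to 5572 in shBrca2 CAFs, with 4 of 14 markers called higher. Those called were Krt8, Krt18, Krt19 and Ezr. Msln, Upk1b and Wt1 were not called (adjusted p = 0.44, 0.61 and 0.80 by DESeq2), and 4 of the 14 markers had negative fold changes. Pericyte sums were 876 to 1804 and 1843 to 2382, with 4 of 9 called higher. Epithelial sums were 175 to 630 and 619 to 884, with 3 of 6 called higher. Krt19, also counted in the mesothelial list, made up most of each epithelial sum. Immune sums were 200 to 217 and 302 to 346, with 2 of 6 called higher and 1 lower. Csf1r, called higher with means of 113 and 248 normalized counts, made up most of each shBrca2 sum. Jchain was the marker called lower, and Lyz2 (means 51.4 and 41.9) was not called. Acinar sums were 167 to 328 and 108 to 173, with 5 of 10 called lower and 1 higher. The acinar marker called higher, with means of 56.9 and 111 normalized counts, made up most of each shBrca2 sum. In 8 of the 10 acinar markers the shBrca2 libraries lay below every shControl library, and in 1 they lay above. Over all listed genes these shares were 9.29% and 7.78%. Such separation was downward in 9 of 14 adventitial markers. It was upward in 4 of 14 mesothelial, 3 of 9 pericyte and 3 of 6 epithelial markers, and downward in 1 mesothelial marker. In the myofibroblastic list and in the immune list 1 marker was separated each way. Endothelial sums were 131 to 195 and 136 to 176, and those of 12 tissue dissociation genes were 50261 to 67654 and 48019 to 62868. Neither of these last lists had a call by DESeq2 (2 and 5 genes had an unadjusted p under 0.05, and edgeR called 1 and 0). In 3 of 6 endothelial markers the shBrca2 libraries lay below every shControl library, and in 0 they lay above. The means of these 3 were only 3.87, 4.22 and 9.84 normalized counts. Ptprc and Epcam, which define immune and epithelial cells, were not analysed here. The part of these cells and states in the values of the members was not tested.

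When the libraries were scaled on the fibroblast identity markers instead of on all genes, a choice made after the data were seen, the median of all genes moved from 0.008 to 0.192. In that scaling 5 members were called lower, namely Lum, Ogn, Prelp, Podn and Ecm2. Dcn and Fmod were not called, with log2 fold changes of -0.63 and -0.53 (adjusted p = 0.21 and 0.16 by DESeq2). Relative to the shifted median these values were -0.82 and -0.72, for which no test was made.

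The positions of the members bear on some counts. By exons of GENCODE vM39 on GRCm39, 1155 of 6135 exon bases of Ogn and 267 of 2927 of Aspn also lie in exons of Cenpp on the opposite strand, and none of Ecm2 do. The strand setting of the counting was not given in the sources used here, so reads of Ogn and Cenpp at shared bases cannot be told apart. Cenpp had means of 10.8 normalized counts in shControl CAFs and 16.7 in shBrca2 CAFs (log2 fold change 0.72, SE 0.50, adjusted p = 0.51 by DESeq2), the opposite direction to Ogn. For Prelp, 350 of 7031 exon bases are shared with the lncRNA Gm15851. Within 250 kb of the members lie 45 other protein-coding genes, of which 30 were in the table. None of the 30 was called by DESeq2 or edgeR or had an unadjusted p under 0.05, and their median log2 fold change was 0.01.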

How the data were processed

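CAF RNA of 3 shControl and 4 shBrca2 libraries was measured by a 3' end variant of MARS-seq. The authors deposited raw counts per gene symbol, whole numbers that were not normalized, in a table with a column per library. The submitters' processing notes name bcl2fastq, cutadapt, STAR 2.4.2a, HTSeq, DESeq2 and mm10. Whether molecular barcodes were collapsed and whether strand was used in counting was not given in the sources used here, so counts may include PCR copies. Reads near the 3' end are counted, and all tests compared libraries and not genes. Sums, shares and ratios of members used the counts as they stood.

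DESeq2 1.42.0 (R 4.3.3) was run on all 7 libraries with its median-of-ratios size factors, a likelihood ratio test of the group and no covariate, over 12768 genes with a p. Calls needed a Benjamini-Hochberg adjusted p under 0.1, an absolute log2 fold change over 0.5 and a mean over 5 normalized counts. The test and these thresholds are those stated in the study's methods. The paper reports 482 genes higher and 666 lower in these CAFs. The Wald test gave the same counts here, and the likelihood ratio test gave 481 and 673. The methods also mention a batch correction, in a paragraph on several sample sets, and the labels give no batch for these libraries, so no batch term was fitted. Fold changes were not shrunken. Ratios were compared by exact permutation tests with Benjamini-Hochberg adjustment over 4 ratios. No pair of libraries of a group agreed within counting noise (lowest mean chi-square per gene 3.01).

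The members, the gene lists and the tests were chosen with earlier results of these data known. Named genes were all members, the called genes of each pathway list (at most 6, by smallest p), the 5 genes closest to Ogn, genes overlapping a member, Pdpn and Brca2. Alternatives were edgeR 4.0.16, the Wald test, TMM scaling, a count filter (10 counts in 3 libraries), no filter on low means, each library left out, a replicate block and a scaling on fibroblast markers. The code was tested on simulated data, in which 200 of 12770 genes were changed. Of 208 calls at the same thresholds (adjusted p under 0.1) 15.9% were false. Of changes of 1 and 2 on the log2 scale, 72.5% and 100% were recovered. Coordinates and promoter sequences are RefSeq on GRCm38.p6.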

Additional observations from a re-analysis of the deposited data

How the results depend on the processing

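Over the 7 fits without 1 library, members called lower ran from 3 to 7, all genes called higher from 261 to 610 and all genes called lower from 354 to 695. Same-numbered pairs of libraries had correlations of -0.066, -0.098 and -0.095 in their deviations from the group means. No library correlated best with its own number. The deviations were taken from means of only 3 or 4 libraries, so these values cannot decide whether the replicate numbers pair the libraries. With the replicate block on the 6 libraries with shared numbers, 3 members were called lower, and 242 genes were called higher and 322 lower. Scaling on fibroblast markers gave 921 genes called higher and 377 lower. Without 1 library, the log2 fold change of Aspn ran from -0.65 to 0.37 and that of Brca2 from -0.18 to 0.24. Aspn changed sign without shControl replicate 1 (0.37). Brca2 did so without shControl replicate 2 (0.24), without shBrca2 replicate 3 (0.07), with the replicate block (0.086) and with the fibroblast scaling (0.17). The cause was not tested in any of these. The other 8 members had negative fold changes under all 14 alternatives, and Prelp and Podn were called under each. The log2 difference of the summed members was -0.39 when libraries were scaled by total count. Ecm2 had only 4 to 51 raw counts per library.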
